A study of Homo sapiens with 60 samples.

Results

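The ZNF-named zinc finger genes described here are genes whose symbol is ZNF, a number and at most 1 letter. They were selected on their level, a mean of 10 CPM (counts scaled to a fixed library total) or more across the 28 input libraries, and ZNF503 and ZNF260 were left out by the rule. Of 559 ZNF-named rows among the 60590 rows used, 330 were members, 227 lay under the level and the other two were the genes left out. At a level of 5 CPM there would be 374 members and at 20 CPM there would be 243. Just inside the threshold lay ZNF204P at 10.07 CPM, ZNF681 at 10.11 and ZNF182 at 10.24, and just outside it lay ZNF774 at 9.99, ZNF684 at 9.68 and ZNF441 at 9.65. The group was chosen with earlier results on its behaviour with the speckle baits known, so the level and the enrichment over a bait's own input are given as descriptions.

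The study mapped RNA near nuclear bodies in the Flp-In form of HEK293, an established line from human embryonic kidney that takes a transgene at 1 site. Each line stably carried 1 FLAG-APEX2 construct. APEX2 is a peroxidase that attaches biotin to molecules close to it, here after 30 minutes with 500 µM biotin-phenol and 1 minute with 1 mM hydrogen peroxide, a treatment that every line received. For each of 14 constructs, called baits, 2 libraries came from RNA pulled down on streptavidin and 2 from the RNA before pulldown (input), all ribosome-depleted. The baits were SRSF7, SRSF1 and RNPS1, which are splicing proteins of nuclear speckles; SAM68, an RNA-binding protein with nuclear bodies of its own; PML and SP100, proteins of PML bodies; SMN2 and WRAP53, named for proteins of gems and Cajal bodies; NPAT of the histone locus body; FBL of the nucleolus; LMNA of the nuclear lamina; and NLS, GFP and FLAG, whose names give no nuclear body. A separate table held SRSF7 pulldown RNA alone, in 2 libraries after poly(A) selection and 2 after ribosome depletion. Each construct stands for 1 line, so a difference between baits and one between lines cannot be told apart.

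C2H2 zinc finger proteins bind DNA, and some bind RNA, through repeated fingers held by zinc. Many ZNF genes encode a KRAB domain, which recruits the co-repressor TRIM28 and with it enzymes that lay down heterochromatin, often over transposable elements. The genes arose largely by tandem duplication, and many of them sit side by side on chromosome 19.

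Promoter sequences were matched for 283 of the 330 members in RefSeq (GRCh38.p14). The 250 bases before the start are shown for the 3 members highest with the speckle baits and the 2 highest with SAM68 among those with an entry and no expressed overlapping gene, so that a reader can see which promoters belong to the strongest responses. Each runs 5′ to 3′ along the gene's strand, and capitals mark a match on either strand to 1 of 6 motifs: ETS (CCGGAAG), NRF1 (GCATGCGC), YY1 (AAGATGGC), ZNF143 (ACTACAA), the CCAAT box (CCAAT) and the TATA box (TATAAA). The windows are chr17:5191869-5192118 on the minus strand for ZNF594, chr19:57559864-57560113 minus for ZNF550, chr16:3305247-3305496 plus for ZNF75A, chr19:23758892-23759141 minus for ZNF681 and chr5:179060123-179060372 plus for ZNF354C.
ZNF594: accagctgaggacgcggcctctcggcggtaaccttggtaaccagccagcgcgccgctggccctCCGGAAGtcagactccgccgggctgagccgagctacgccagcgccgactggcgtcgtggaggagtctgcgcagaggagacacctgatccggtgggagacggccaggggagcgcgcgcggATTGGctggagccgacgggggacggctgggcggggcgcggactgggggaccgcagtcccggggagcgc
ZNF550: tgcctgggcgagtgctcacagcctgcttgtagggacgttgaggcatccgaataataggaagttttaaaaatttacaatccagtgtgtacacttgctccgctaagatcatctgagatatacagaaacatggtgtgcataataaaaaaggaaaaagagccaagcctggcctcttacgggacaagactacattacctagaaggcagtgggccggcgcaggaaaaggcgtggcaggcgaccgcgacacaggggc
ZNF75A: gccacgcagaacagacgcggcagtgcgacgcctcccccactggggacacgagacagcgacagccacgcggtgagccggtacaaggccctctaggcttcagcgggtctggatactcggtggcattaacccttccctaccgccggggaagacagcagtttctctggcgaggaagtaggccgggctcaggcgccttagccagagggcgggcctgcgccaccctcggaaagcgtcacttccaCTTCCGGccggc
ZNF681: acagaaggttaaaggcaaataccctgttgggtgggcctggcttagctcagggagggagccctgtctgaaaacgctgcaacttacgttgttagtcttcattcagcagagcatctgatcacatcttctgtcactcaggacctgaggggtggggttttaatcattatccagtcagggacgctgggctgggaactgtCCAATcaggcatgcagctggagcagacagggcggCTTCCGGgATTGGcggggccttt
ZNF354C: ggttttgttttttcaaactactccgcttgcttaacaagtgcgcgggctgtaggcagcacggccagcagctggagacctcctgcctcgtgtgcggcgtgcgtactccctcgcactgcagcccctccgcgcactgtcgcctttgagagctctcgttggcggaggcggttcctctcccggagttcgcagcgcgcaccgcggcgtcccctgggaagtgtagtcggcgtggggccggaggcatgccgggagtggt

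The ETS letters stood in 94 of 283 members' windows (33.2%) and in 2407 of 27305 windows of all genes (8.82%), with 1 window taken per gene. The ZNF143 letters stood in 6.36% of members' windows against 2.64% of all, and the TATA letters in 4.59% against 11.1%. The CCAAT letters, which need only 5 bases, stood in 43.5% against 33%. The NRF1 letters stood in 3.89% against 2.81%, and the YY1 letters in 3.18% against 1.37%. Within the group, the ETS share was 37.8% of 111 windows of members higher with the speckle baits in the test given further on, and 30.2% of the 172 others. ZNF594, ZNF75A and ZNF681 hold the ETS letters, while the windows of ZNF550 and ZNF354C hold none of the 6 motifs. The windows of all genes were not limited to genes at the members' input level, nor matched by gene type or base content. The differences from all genes are therefore not shown to be particular to ZNF-named genes. These are matches of letters, not measured binding.

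By RefSeq annotation 324 members were protein coding and 6 were pseudogenes. Chromosome 19 held 146 of them (44.2%), compared with 1145 of 18226 tested genes that have a position. Gene span, the distance from the first to the last annotated base with introns included, had a median of 25.2 kb and ran from 0.966 kb (ZNF593) to 488 kb. Mean input level had a median of 33.2 CPM. ZNF711 was highest at 598.8 CPM, followed by ZNF703 at 449.0 and ZNF146 at 337.6. The span of 40 members overlaps another gene at or above the level, among them ZNF276 (VPS9D1 and FANCA), ZNF106 (SNAP23), ZNF428 (SRRM5) and the pair ZNF204P and ZNF391, and the strand setting of the counting is not given in the sources used here. How reads shared between closely related ZNF paralogs were counted is also not given there, so a value of a clustered paralog is uncertain to that extent.

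Library totals ran from 14038645 to 56256915 counts in inputs and from 19280434 to 42097988 in pulldowns, and from 23522548 to 30511742 in the second table. Members took 1.39% to 1.89% of the counts in inputs and 1.73% to 2.49% in pulldowns. The kidney and neuronal genes used to check the line were present (PAX2 median 18.9 CPM, NEFL 146.7 CPM, SALL1 37.3 CPM, LHX1 6.06 CPM), NEFM was at 0.361 CPM, and HBB was at 0 in all 28 inputs. Median levels were 0 for CD3E and DCN and under 0.1 CPM for PTPRC, ALB and APOA1. COL1A1 was at 12.3 CPM, and the second globin gene checked, HBA1, was at 1.3 CPM, above NEFM. The paired inputs of FBL and of NPAT lay far apart. The chi-square per degree of freedom between the pair was 167.3 for FBL and 102.7 for NPAT. It was 1.31 to 12.8 for the input pairs of the 12 other baits. Pulldown pairs lay between 2.98 and 9.85 for 9 baits and further apart for GFP (60.99), NPAT (36.67), LMNA (36.15), SMN2 (30.98) and SRSF7 (21.77). The chi-square does not show which library of a pair is odd. Mitochondrially encoded transcripts took 0.378% and 0.696% of counts in the first inputs of FBL and NPAT. They took 1.99% and 1.60% in the second inputs and 1.15% to 2.57% in inputs of other baits, so the first inputs stood apart. By the counts of 2 ribosomal pseudogenes, RPS14P8 and RPS3AP21, the 56 libraries fell into 3 sets of 16, 36 and 4. Inputs and pulldowns lay in the same set for SRSF7, SRSF1, PML, NLS and FLAG, and in different sets for the 9 other baits, so that for those baits library set and pulldown cannot be told apart. Leaving out the 2 inputs that stood apart raised the number of called members from 129 to 176 for the speckle baits against NLS, from 93 to 150 for SAM68, from 33 to 100 for SMN2, from 46 to 100 for WRAP53, from 37 to 95 for LMNA, from 51 to 139 for GFP, from 21 to 85 for FLAG and from 13 to 72 for PML bodies.

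Enrichment is the log2 of pulldown over the bait's own input after scaling by trimmed means of M values. Members stood highest with the speckle baits: their median was 0.46 with SRSF1, 0.30 with SRSF7 and 0.21 with RNPS1, where the medians of all 23681 genes tested were 0.28, 0.17 and 0.16. With SP100 and FLAG the members' medians were 0.12 and 0.11, where those of all genes were 0.00 and -0.02. They were 0.09 with SMN2, 0.08 with PML, 0.07 with SAM68 and 0.05 with NLS. With RNPS1, PML, SAM68, NLS, NPAT, LMNA, GFP, WRAP53 and FBL the members' median was within 0.07 of that of all genes. The members' median minus that of all genes was 0.05 with RNPS1, less than with FLAG (0.13), SP100 (0.12) and SMN2 (0.07). Genes at the same input level had lower medians than all genes with several baits: -0.17 with SRSF1, -0.20 with SRSF7, -0.07 with RNPS1, -0.23 with LMNA and -0.20 with GFP. Against those, the members also stood above with LMNA (0.08) and GFP (0.07). The highest enrichment of a member was with SRSF1 for 102 members, SRSF7 for 73, SAM68 for 50, GFP for 37 and LMNA for 21. It was with NLS for 0. Enrichment was above 0 with all 14 baits for 35 members and with none for 29. These are descriptions of values that touch the choice of members, and carry no test.

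**Figure D1:**
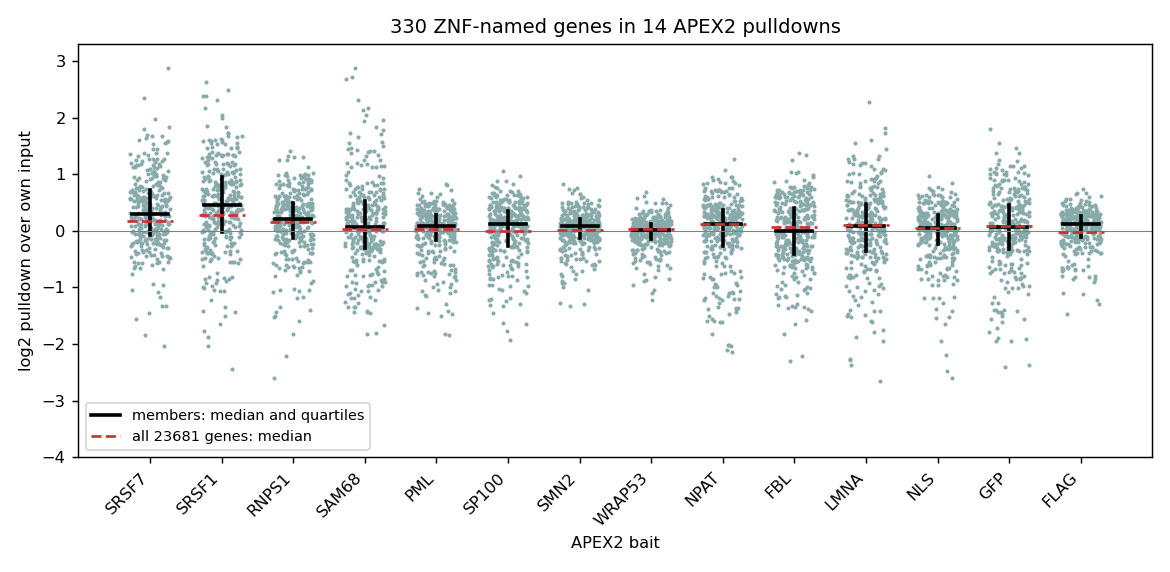
Log2 pulldown over own input (y axis) of each of the 330 members (points) for the 14 APEX2 baits (x axis); black bars give the members' median and quartiles and the red dashes the median of all 23681 genes tested. The members' median lies furthest above 0 with SRSF1 (0.46) and SRSF7 (0.30), and the SD over members runs from 0.28 with WRAP53 to 0.79 with SRSF1.

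Mean enrichment over the baits set a few members apart. ZNF385B had the highest mean enrichment over the 14 baits, 0.82 (SD 0.69 over baits), followed by ZNF519 at 0.78 and ZNF215 at 0.76. ZNF385B was uneven: it was highest with LMNA and GFP, and at -0.34 and -0.03 with SP100. ZNF358 was lowest at -1.84 (SD 0.58), followed by ZNF579 at -1.84 and ZNF703 at -1.78. All 3 of the low ones were below 0 with all 14 baits. ZNF703, a co-repressor known as an oncogene in breast cancer, is a close relative of the left-out ZNF503, whose enrichment ran from -3.76 with NLS to -0.91 with WRAP53.

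To ask whether a member's enrichment differed among baits at all, the 14 enrichments were compared in 1 F test of edgeR's quasi-likelihood fit, with Benjamini-Hochberg adjustment over all genes tested. It was past the threshold of 0.05 for 306 of 330 members, where it was so for 68.8% of all genes. All genes include many at lower levels than the members, and the share among genes at the same input level was not computed. The 2 shares are therefore not read as a difference between members and other genes. The largest F values belonged to ZNF594 (52.9, adjusted p = 3.31e-17), ZNF75A (50.8), ZNF226 (50.1), ZNF550 (34.1) and ZNF354C (32.6). The SD of a member's enrichment over the baits ran from 0.13 (ZNF766) to 0.94 (ZNF594), with a median of 0.36. In the comparisons that follow, "higher" and "lower" refer to this adjusted p in a 2-sided test. The group was chosen with earlier results on these enrichments known, above all with the speckle baits. The F test and the counts of members called in the first table therefore describe this group and give no independent support for a trait of it. The labels do not say whether the paired libraries came from separate cultures, so the spread behind each p-value is that between these libraries and may be technical. In bulk libraries, more labelled RNA in each cell and more cells holding such RNA cannot be told apart.

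The first comparison asked which members were nearer to speckle proteins than to a diffuse nuclear label, by setting the mean enrichment of SRSF1, SRSF7 and RNPS1 against that of NLS. Of 330 members 128 were higher (38.8%), 1 (ZNF639) was lower and 201 passed in neither direction. Over all genes tested, 12.5% were higher and 7.88% lower, and among the 10828 genes at the same input level 16.5% were higher and 15.6% lower. The members' median log2 difference was 0.34, that of all genes 0.14 and that of genes at the level -0.05. The change was mostly moderate, with 13 of the 128 higher by 2-fold or more. Over all 23681 genes tested, 1165 of the 2962 higher ones were, so the members do not stand out at 2-fold.

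ZNF594 gave the clearest pattern. Levels of single libraries are in CPM scaled by trimmed means. Its inputs lay between 18.97 and 42.3 CPM across all baits. Its SRSF7 pulldowns held 249.7 and 222.1 CPM and its SRSF1 pulldowns 114.2 and 129.7 CPM. The RNPS1 pulldowns held 93.1 and 86.0 CPM and the NLS pulldowns 61.5 and 63.1 CPM. All 6 speckle pulldowns lay above both NLS pulldowns, and SRSF7 was highest of the 14 baits. Against NLS the difference was 1.42 ± 0.15 (log2, SE), or 2.67-fold, with an adjusted p of 5.6e-09 in edgeR's test.

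ZNF75A, a KRAB gene, had pulldown levels of 171.0 and 161.3 CPM with SRSF1, 111.7 and 94.2 CPM with SRSF7 and 94.9 and 83.3 CPM with RNPS1. With NLS they were 52.8 and 56 CPM. Its order of baits differs from that of ZNF594, since SRSF1 leads, and again no speckle pulldown overlapped the NLS pair. The difference was 1.36 ± 0.12 (adjusted p = 1.17e-10, edgeR).

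ZNF226, a KRAB gene of chromosome 19, reached 404.3 and 393.5 CPM with SRSF7 and 368.7 and 388.1 CPM with SRSF1, with 181.6 and 156.3 CPM for RNPS1. NLS gave 140.7 and 141.5 CPM. The RNPS1 libraries are close to the NLS pair here, and the 2 SR proteins carry most of the difference of 1.29 ± 0.12. The same holds for ZNF594 in size, where enrichment was 2.95 and 2.78 with SRSF7 but 1.35 and 1.24 with RNPS1.

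ZNF276 had the largest difference, 1.46 ± 0.18. Its enrichment was below 0 in every library of the 11 other baits, at -0.44 and -0.34 with NLS, and above 0 in all 6 speckle libraries. Because ZNF276 overlaps FANCA and VPS9D1, reads of these genes may enter its count. ZNF550 followed with 1.37 ± 0.14, led by SRSF1 (2.52 and 2.43). The other named members were ZNF79 (1.21), ZNF414 (1.14), ZNF251 (1.14), ZNF416 (1.10) and ZNF317 (1.08). ZNF639 fell by 0.50 ± 0.14 (adjusted p = 0.00702, edgeR), with enrichment of -1.12 and -1.03 with SRSF7 and above 0 with SAM68, PML and SP100.

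**Figure D2:**
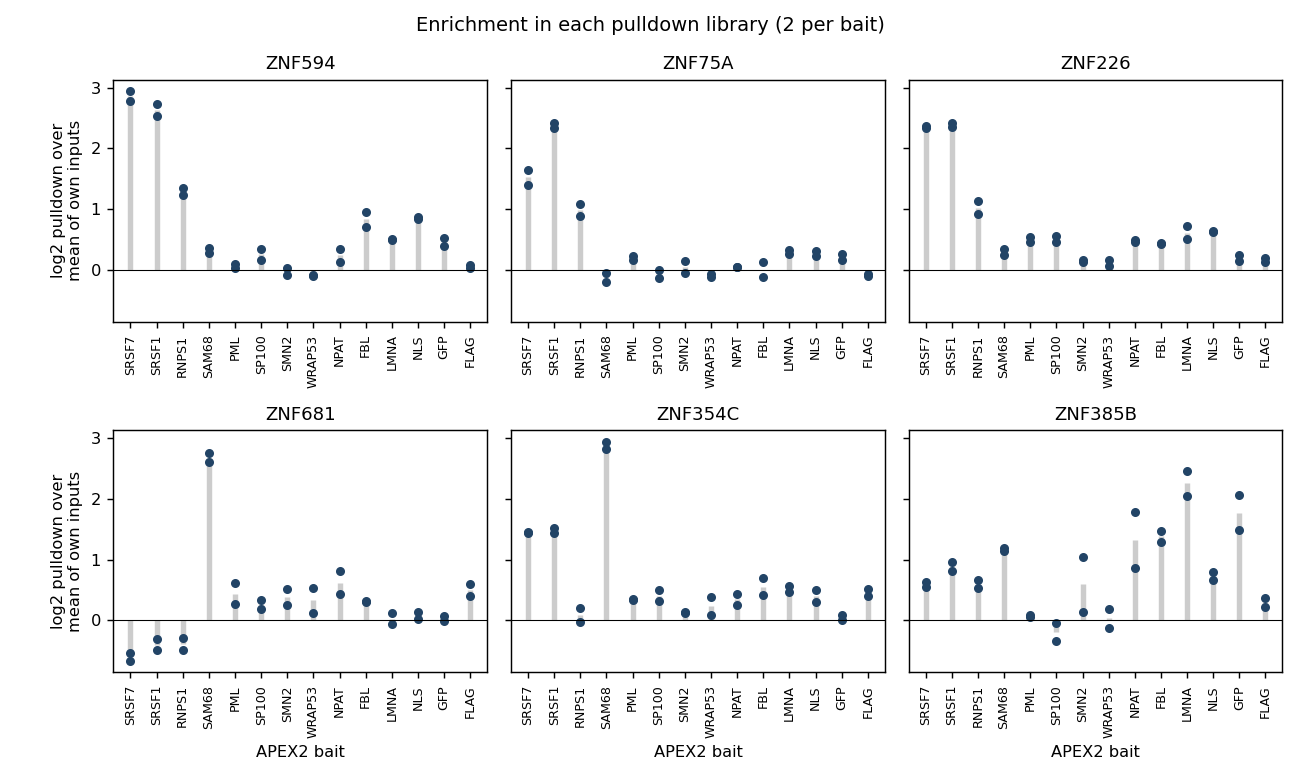
Log2 enrichment over the mean of the own inputs (y axis) in each of the 2 pulldown libraries (points; grey bar, mean) for 14 baits (x axis) and 6 members. ZNF594, ZNF75A and ZNF226 stand highest with SRSF7 and SRSF1, ZNF681 and ZNF354C with SAM68, and ZNF385B with LMNA and GFP.

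The number of called members was 70 without the first NLS pulldown, 82 without the second NLS input, 80 when all genes with at least 1 count were tested and 233 with only the baits of 1 library set. The last of these leaves RNPS1 out, so SRSF1 and SRSF7 alone stand for the speckle baits. With FLAG in place of NLS, 126 members were higher and 27 lower, but the members' median (0.23) was then no longer above that of all genes (0.24). The share of all genes called with FLAG as reference is not given here. The shares with NLS do not apply to it, so the 126 are not shown to exceed other genes.

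Other lists were set beside the members without a test of the difference. Of 62 other C2H2 genes at the level, with ZBTB, ZFP, ZSCAN or ZKSCAN symbols, 23 were higher (37.1%) and 0 lower (median 0.29). Of 118 tested ZNF-named genes under the level, 16 were higher and 0 lower (median 0.42), a share of 13.6% that is near that of all genes. Among 20 genes of the KRAB co-repressor and heterochromatin machinery, 7 were higher (35.0%) and 2 lower (10.0%). MBD1, which binds methylated DNA, was at 0.95 ± 0.12, the histone methyltransferase gene SETDB1 at 0.74 ± 0.10, CHD3 at 0.64, DNMT1 at 0.61, TRIM28 at 0.57 ± 0.21 (adjusted p = 0.0448, edgeR), HDAC1 at 0.50 and DAXX at 0.43. The heterochromatin protein 1 genes CBX3 and CBX1 fell by 0.77 and 0.49.

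Speckle against NLS differed with gene span. Of 30 members under 10 kb 17 were higher, of 171 members of 10 to 30 kb 85, of 106 members of 30 to 100 kb 26, and of 23 members over 100 kb 0. Shares of all genes called in these classes are not given here, so the counts alone are not shown to be particular to the members. The medians in these classes were 0.54, 0.47, 0.21 and -0.03. All genes at the level in the same classes had medians of 0.01, 0.07, -0.08 and -0.11, so the members lay above them in each class, least in the longest. Spearman's rho between span and difference was -0.42 across the 330 members, a description only, since all members share the same libraries.

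Chromosome 19 held 72 of the 128 higher members: 72 of its 146 members were higher (median 0.45) against 56 of 184 on other chromosomes (median 0.28). Of 539 other genes on chromosome 19 at the level, 172 were higher (median 0.25). Members less than 1 Mb from the next formed 8 groups of 5 or more along the chromosome, and these differed. In the group from ZNF101 to ZNF254 (19.67 to 24.13 Mb), 2 of 21 members were higher and the median was -0.04. In the group from ZNF628 to ZNF446 (55.48 to 58.49 Mb), 24 of 33 were higher, with a median of 0.58. Group 6 around ZNF226 had 10 of 15 (0.59), group 7 12 of 24 (0.47) and group 5 6 of 21 (0.29). The ZNF101 to ZNF254 group had a median span of 35.1 kb and a median input of 23.9 CPM, and the ZNF628 to ZNF446 group 13.5 kb and 24.3 CPM. Group 5, with a median span of 36.9 kb, lay between them. Whether span or position goes with the difference between groups was not tested.

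**Figure D3:**
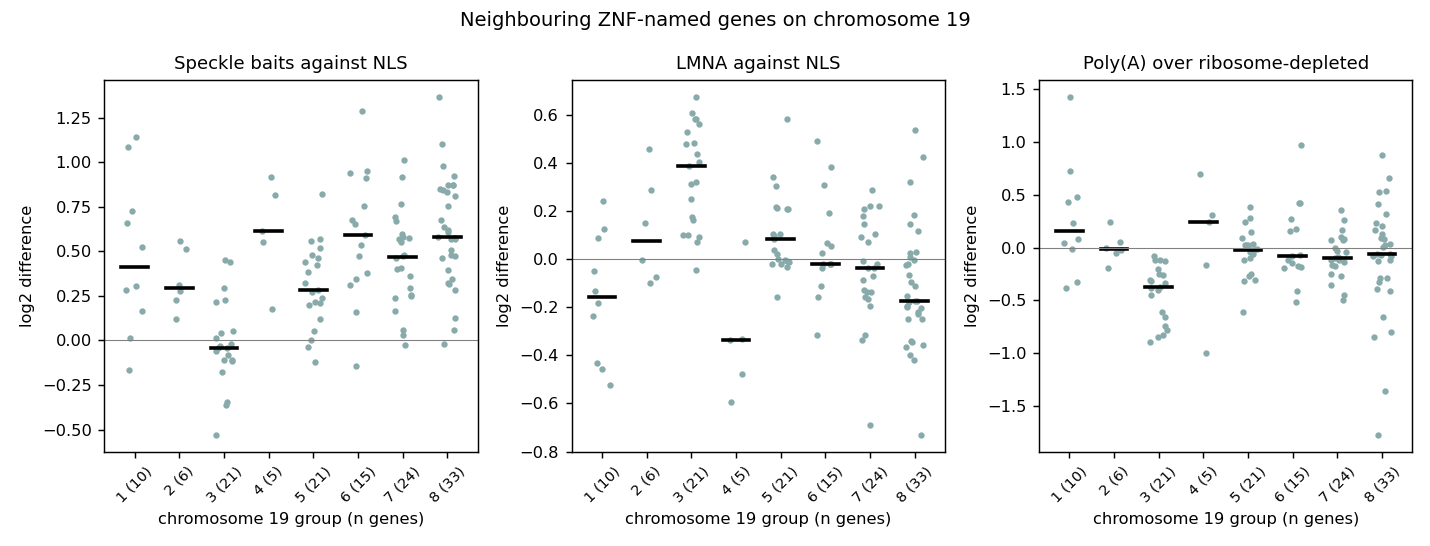
Log2 difference (y axis) of each member (points; bar, median) in the 8 groups of neighbouring members on chromosome 19 (x axis, numbered along the chromosome, with the number of genes) for speckle baits against NLS, LMNA against NLS and poly(A) over ribosome-depleted SRSF7 pulldown RNA. Group 3, ZNF101 to ZNF254, has the lowest speckle median (-0.04), the highest LMNA median (0.39) and the lowest poly(A) median (-0.37) of the 8.

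LMNA, the lamina bait, was set against NLS in the same way. Of 330 members 26 were higher and 11 lower, where 7.46% of all genes were higher and 8.73% lower, so the members' share of 7.88% higher was close to that of all genes. Among genes at the same input level 10.97% were higher and 15.76% lower, against the members' 3.33% lower. Among the 23 members over 100 kb 10 were higher and 0 lower (median 0.65), and among the 30 under 10 kb 0 were higher and 2 lower (median -0.34). Values of all genes over 100 kb are not given here, and those of shorter genes follow below. ZNF385B had 200.1 and 268.3 CPM in the LMNA pulldowns and 45.8 and 51.3 CPM in their inputs, with 73.2 and 66.8 CPM in the NLS pulldowns. Its difference was 1.54 ± 0.39 (adjusted p = 0.00661, edgeR), and its GFP pulldowns, at 201.5 and 136.2 CPM, were high too. ZNF407 (1.29), ZNF462 (1.28), ZNF438 (1.14) and ZNF75D (1.10) followed. The lowest were ZNF232, which fell by 0.87, ZNF446 by 0.73, ZNF473 by 0.72, ZNF32 by 0.66 and ZNF205 by 0.63. ZNF473 encodes a protein of the U7 machinery that processes histone messenger RNA.

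Short members fell less with LMNA than short genes in general. All genes at the level under 10 kb had a median of -0.68 with 47.6% lower, and those of 10 to 30 kb a median of -0.36 with 22.7% lower. The members' medians in these classes were -0.34 and -0.03, with 6.67% and 4.68% lower. In the 30 to 100 kb class the medians were 0.24 for members and -0.01 for all. Spearman's rho with span was 0.64 across the members for LMNA against NLS. Without the second LMNA pulldown 9 members were called in place of 37, and with total counts in place of trimmed means the 26 higher and 11 lower became 16 and 22, and with DESeq2 size factors 45 and 4.

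GFP was set against NLS next. Of 330 members 31 were higher and 20 lower, where 7.53% and 10.3% of all genes were, and 12.5% and 17.8% of genes at the level. ZNF609 (1.31 ± 0.20), known as the host gene of a circular RNA, ZNF644 (1.12) and ZNF573 (1.09) were the highest. ZNF32 fell by 1.45, ZNF449 by 1.05 and ZNF232 by 1.02. Spearman's rho with span was 0.63, and 9 of the 23 members over 100 kb were higher. The share of all genes in that span class is not given here, so this is not shown to be particular to the members. The comparisons of LMNA and of GFP share the NLS libraries and both have pulldowns in the smallest library set, so their likeness is given as values side by side. With total counts the split was 20 higher and 34 lower, and with DESeq2 size factors 55 and 13. Without the second GFP pulldown 91 members were called in place of 51, and 19 without the second NLS pulldown.

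**Figure D4:**
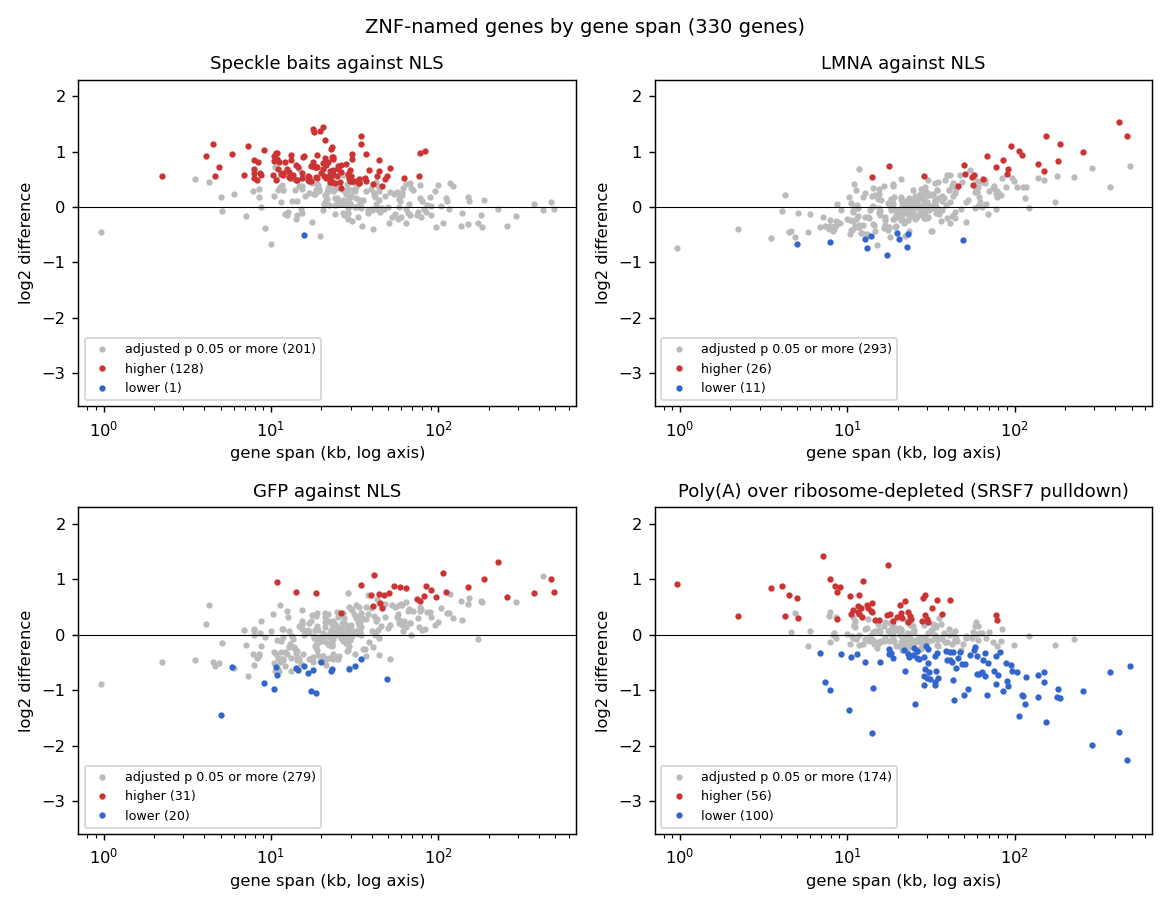
Log2 difference (y axis) against gene span (x axis, kb, log scale) for the 330 members in 4 comparisons; red points are higher and blue points lower at an adjusted p under 0.05, grey points are not past it. Of the 23 members over 100 kb, 0 are higher with the speckle baits, 10 with LMNA and 9 with GFP, and 20 are lower in poly(A) RNA. Most called members in each comparison are shorter than that. Shares of all genes in that span class are not given, so these counts are not shown to be particular to the members.

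Set directly against LMNA, the speckle baits separated the members in both directions. There were 137 higher and 46 lower, where 21.6% of all genes were higher and 15.7% lower, and 29.3% and 25.7% of genes at the level. The medians were 0.27 for members and 0.08 for all genes. The LMNA pulldowns lay in the smallest library set and the speckle pulldowns in the largest, so bait and library set cannot be told apart here. ZNF594 was highest (1.77 ± 0.15, adjusted p = 6.2e-12, edgeR), followed by ZNF473 (1.76), ZNF276 (1.65), ZNF232 (1.60) and ZNF414 (1.60). ZNF385B fell by 1.58 ± 0.32, ZNF704 by 1.33, ZNF644, whose protein works with histone methyltransferases, by 1.30, ZNF827 by 1.19 and ZNF407 by 1.19. Under 10 kb 22 of 30 members were higher and over 100 kb 16 of 23 were lower. The shares of all genes at the level in these span classes are not given for this comparison, so the split is not shown to be particular to the members. In the group from ZNF101 to ZNF254 0 of 21 were higher and 8 lower, while the ZNF628 to ZNF446 group had 23 of 33 higher.

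SAM68 gave the largest single changes. Of 330 members 63 were higher against NLS and 30 lower, where 12.2% and 8.03% of all genes were. Among all genes at the input level 22.7% were higher, above the members' 19.1%. Of the 63 higher members, 35 were higher by 2-fold or more. Among all genes 1762 of the 2890 higher ones were, so large changes were not particular to the members.

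ZNF681 had 78.2 and 71.0 CPM in the SAM68 pulldowns. Its SAM68 inputs were at 11.5 and 11.6 CPM, its NLS pulldowns at 10.1 and 9.36 CPM, and no pulldown of another bait was above 18.8 CPM. The difference was 2.62 ± 0.27, or 6.16-fold (adjusted p = 9.03e-10, edgeR). ZNF681 also had a negative enrichment with the 3 speckle baits (-0.67 and -0.53 with SRSF7), so the SAM68 pair stood alone. ZNF354C followed with 2.46 ± 0.19, and had enrichment of 1.46 and 1.44 with SRSF7 as well. ZNF24, a SCAN domain factor, reached 559.2 and 575.5 CPM from inputs of 90.05 and 83.39 CPM (2.45 ± 0.34). These 3 calls were past the threshold under every alternative run, at 2.34, 2.53 and 1.98 against the other baits of the same library sets.

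The lowest with SAM68 were the pseudogene ZNF767P, which fell by 1.12, ZNF500 by 1.03 and ZNF335 by 1.03. ZNF767P (-0.49) and ZNF500 (-0.54) were no longer past the threshold against baits of the same library sets (adjusted p = 0.0721 and 0.156, edgeR). Span showed no relation to the SAM68 difference (rho 0.01). With total counts in place of trimmed means, all genes shifted by -0.43 in this comparison and the split became 34 higher and 131 lower. The left-out ZNF260 was at 3.37 with SAM68, above every member.

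SMN2 and WRAP53 gave shares near those of other genes at the level. With SMN2 27 members were higher and 6 lower, where 4.41% and 2.27% of all genes were, and with WRAP53 28 and 18, where 4.99% and 3.32% were. Among genes at the same input level 9.06% were higher with SMN2 and 8.70% with WRAP53, above the members' 8.18% and 8.48%. ZNF853, ZNF703 and ZNF106, an RNA-binding zinc finger protein, led SMN2 (1.59, 1.48 and 1.33), and ZNF703, ZNF579 and ZNF853 led WRAP53 (1.60, 1.55 and 1.47). ZNF703 was below 0 with each of these baits: its enrichment was -1.12 and -0.87 with SMN2 and -1.02 and -0.74 with WRAP53, but -2.54 and -2.42 with NLS, so its values with SMN2 and WRAP53 lay nearest to 0 among the 3. ZNF594 fell by 0.87 and 0.95, ZNF767P by 0.84 and 0.98, ZNF133 by 0.72 with SMN2 and ZNF519 by 0.92 with WRAP53. With total counts as the scale the splits were 12 higher and 32 lower for SMN2 and 15 and 33 for WRAP53. Against the other baits of the same library sets edgeR called 0 members for either bait (47 and 80 had an unadjusted p under 0.05), and with FLAG in place of NLS it again called 0 (5 and 3).

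FLAG against NLS gave 19 higher and 2 lower members, where 2.21% and 0.866% of all genes were, and 4.61% and 1.03% of genes at the level. ZNF703 (1.19), ZNF460 (1.15) and ZNF579 (1.13) were highest and ZNF594 and ZNF692 fell by 0.79 and 0.74. Neither name gives a nuclear body, so these 21 members differ between 2 baits that could each serve as the reference. With total counts the split was 7 higher and 12 lower, and without the first FLAG input 6 members were called.

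PML bodies, for which the PML and SP100 baits were averaged, gave few calls: 7 members were higher and 6 lower, where 1.26% and 2.54% of all genes were, and 2.42% and 3.10% of genes at the level. ZNF579 (0.98), ZNF639 (0.72 ± 0.15) and ZNF268 (0.70) were highest. ZNF639 is the member that was lower with the speckle baits. ZNF767P, ZNF594 and ZNF335 fell by 0.84, 0.69 and 0.60. With SP100 alone against baits of the same library sets none of these 6 was past the threshold, and ZNF579 (-0.10) and ZNF594 (0.03) changed sign. With total counts the split was 2 higher and 19 lower, and with DESeq2 size factors 17 and 4. The number of called members ran from 0 without the first NLS input, by edgeR, to 108 with pulldowns alone.

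NPAT gave 4 higher and 9 lower members, where 1.13% and 3.06% of all genes were, and 2.13% and 4.97% of genes at the level. ZNF609 (0.93), ZNF460 (0.72) and ZNF106 (0.70) were highest, and ZNF692, ZNF446 and ZNF862 fell by 1.17, 0.87 and 0.80. Against baits of the same library sets none of these 6 was past the threshold, and ZNF460 (-0.10) and ZNF106 (-0.25) changed sign. FBL gave 3 higher, ZNF106 (0.93), ZNF460 (0.91) and ZNF543 (0.69), and 0 lower, where 0.439% and 0.249% of all genes were; 72 members had an unadjusted p under 0.05 in edgeR's test, and DESeq2 called 17. Without the first input of the bait itself, 1 member was called for NPAT and 0 for FBL by edgeR. Without its second input, so that only the odd one remained, the counts were 113 and 162. The NPAT split was 6 higher and 4 lower with DESeq2 size factors.

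In the second table, poly(A) selection was set against ribosome depletion for SRSF7 pulldown RNA. These libraries had no part in the choice of members. They are labelled as SRSF7 pulldown, but the levels of the speckle-higher members in the ribosome-depleted ones were near the first table's input levels, as given further on, so how far they match the first table's pulldowns is unsure. Of 330 members 56 were higher in poly(A) RNA and 100 lower, where 27.5% and 26.7% of all 18641 genes tested were, so the members' 17.0% higher was under the share of all genes; at the same input level 38.1% were higher and 30.3% lower. With total counts as the scale the split was 86 higher and 72 lower and the median of all genes moved from 0.03 to 0.16, so the direction of the balance rests on the scaling. The members' median was -0.08 (0.06 with total counts) and lay below that of all genes on both scales.

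ZNF407 had 96.6 and 97.2 CPM in the poly(A) libraries and 427.6 and 504.4 CPM in the ribosome-depleted ones, with no overlap. It fell by 2.27 ± 0.09, or 4.81-fold (adjusted p = 1.22e-16, edgeR). The fit of this table leaves 2 residual degrees of freedom, so the SE and p-value lean mainly on spread shared across genes. ZNF521, a cofactor of progenitor cells, fell by 2.00, ZNF460 by 1.77, ZNF385B by 1.75 and ZNF462 by 1.58. ZNF358 was highest (1.43 ± 0.18), from 5.04 and 3.65 CPM to 11.2 and 12.2 CPM, followed by ZNF204P (1.26), ZNF205 (1.00), ZNF428 (0.97) and ZNF593 (0.92), a gene of ribosome biogenesis.

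The poly(A) difference fell with span. Of 23 members over 100 kb 20 were lower and 0 higher (median -1.02), and of 30 under 10 kb 14 were higher and 4 lower (median 0.33). The shares of all genes called in these classes are not given here, so such counts are not shown to be particular to the members. All genes at the level had medians of -0.63 and 0.70 in these classes, and 0.35 at 10 to 30 kb, where the members were at -0.04. The members' medians were lower in each class. In the group from ZNF101 to ZNF254 14 of 21 were lower and 0 higher.

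The SRSF7 pulldown levels of the speckle-enriched members differed between the 2 tables. Levels are set here across tables that were scaled separately, without a test. RPS3AP21, used above to define the library sets, had 0 or 1 counts in the second table's libraries, as in the smallest set. It had 38 and 39 in the first table's SRSF7 pulldowns. A difference between the tables and one between library sets therefore cannot be told apart. ZNF594 held 60.6 and 59.5 CPM in the ribosome-depleted pulldowns of the second table, where the first table had 249.7 and 222.1 CPM. ZNF226 held 131.1 and 130.6 CPM, where the first had 404.3 and 393.5 CPM. For all 10 named members both pulldowns of the first table lay above both of the second, by 1.86-fold to 3.93-fold in their means. Over the 128 members that were higher with the speckle baits the median ratio was 1.86, and over the 202 others 0.945. Both the 10 and the 128 were selected partly on the first table's SRSF7 pulldown levels, so a ratio above 1 is favoured by that choice and supports nothing. The second table's pulldown level was close to the first table's input level for these 128 (median ratio 0.976). The second table holds no input libraries in the data analysed here, so an enrichment cannot be formed for it.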

How the data were processed

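RNA-seq was done on APEX2 pulldown and input RNA of Flp-In HEK293 lines with a directional library kit, per the labels' protocols. The authors deposited whole-number counts per gene in 2 tables; STAR 2.7.4a, featureCounts and hg38 are named in the submitters' processing notes. One row with a cell that is no number was left out, which left 60590. Genes were kept by edgeR's filterByExpr per group (23681 and 18641 tested), scaled by TMM and fitted with edgeR 4.0.16 (glmQLFit with robust priors, 28 group means, all 56 libraries, and the 4 libraries of the second table apart). Contrasts were pulldown minus input of a bait minus that of NLS or LMNA, adjusted by Benjamini-Hochberg over all genes with a threshold of 0.05. The script was tested on simulated data.

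The members and lists were chosen with earlier results of these data known. Named were members past the threshold: the 10 highest and 5 lowest for speckle against NLS with one direction in all speckle replicates, the 5 highest and lowest for LMNA, speckle against LMNA and poly(A), 3 for other baits, the 5 largest F, the 3 highest and lowest in mean enrichment, the 3 highest in input, the 3 on each side of the level, ZNF503 and ZNF260, and co-repressor genes past the threshold in speckle against NLS. Symbols were matched to RefSeq (328 by symbol, 2 by synonym), whose positions are GRCh38.p14. Splits by KRAB or SCAN domain or finger number were not analysed here, since no protein sequences were used. Alternatives were other scaling, filters, DESeq2 1.42.0, a replicate block, each library left out, pulldowns alone and other reference baits.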

Additional observations from a re-analysis of the deposited data

How the results depend on the processing

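Counts are members called, out of 330, in the comparison named. Speckle against LMNA (183 called), any difference among baits (306) and poly(A) against ribosome-depleted RNA (156) stayed within 1.5 times their count under every alternative run, at 154 to 239, 284 to 328 and 137 to 176; with 1 library left out they ran from 141 to 180, 292 to 327 and 121 to 152. None of these alternatives changed the library set of the LMNA pulldowns, so they do not separate bait from set in speckle against LMNA. Speckle against NLS (129) gave 80 with every gene of 1 count or more tested and 233 with baits of 1 library set, and 70 to 135 with 1 library left out. Against baits of the same library sets, an alternative chosen after seeing the data like those without SRSF1 (94) and with FLAG as reference (153), it gave 103.

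Testing every gene of 1 count or more gave 4 for PML body against NLS, 21 for SMN2 against NLS, 22 for WRAP53 against NLS, 4 for NPAT against NLS, 13 for LMNA against NLS, 26 for GFP against NLS and 12 for FLAG against NLS. A mean CPM of 5 or more gave 27 (PML body), 52 (SMN2), 28 (NPAT), 9 (FBL against NLS), 58 (LMNA), 85 (GFP) and 37 (FLAG). Without the odd inputs the counts were 72 (PML body), 150 (SAM68 against NLS), 100 (SMN2), 100 (WRAP53), 6 (FBL), 95 (LMNA), 139 (GFP) and 85 (FLAG). Pulldowns alone gave 108 (PML body), 171 (SAM68), 115 (SMN2), 111 (WRAP53), 100 (NPAT), 43 (FBL), 153 (LMNA), 171 (GFP) and 82 (FLAG). DESeq2 gave 38 (PML body), 57 (SMN2), 32 (NPAT), 17 (FBL), 57 (LMNA), 87 (GFP) and 47 (FLAG). DESeq2 size factors gave 21 for PML body and 5 for FBL, and total counts 21 for PML body and 165 for SAM68. With baits of 1 library set PML body, there the PML bait alone, gave 82 and FLAG 112. Against baits of the same library sets PML body (SP100 alone) gave 41, SMN2 0, WRAP53 0 and FBL 34. With FLAG as reference SAM68 gave 60, SMN2 0, WRAP53 0, LMNA 104 and GFP 95. With 1 library left out the ranges were 0 to 14 (PML body), 68 to 74 (SAM68), 15 to 36 (SMN2), 22 to 32 (WRAP53), 1 to 113 (NPAT), 0 to 162 (FBL), 9 to 42 (LMNA), 19 to 91 (GFP) and 6 to 12 (FLAG). Beyond the smaller number of libraries or other genes tested, the cause was not tested.

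Whether the replicate numbers pair the samples is unsure. Pulldown and input of the same number deviated together (r over 0.1) for 7 of 14 baits, at 0.33 (LMNA) to 0.56 (SP100). Over all 14 baits r ran from -0.24 to 0.56 with a median of 0.18, and the main fit used no pairing. With the replicate block speckle against NLS kept 129 called, NPAT gave 8, and poly(A) gave 176. The median of members minus that of all genes in pulldown over input moved for SRSF7 from 0.12 to 0.057 at a level of 20 CPM and 0.11 with ZNF503 and ZNF260 put back, for NPAT from 0.00 to -0.0225 at 5 CPM and 0.0454 at 20 CPM, and at 20 CPM to 0.0091 for LMNA and 0.0081 for GFP.

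Of 1699 alternative values of named genes, 1491 kept direction and side of the threshold, 204 kept direction only and 4 turned, all against baits of the same library sets: ZNF579 (-0.10) and ZNF594 (0.035) in PML body against NLS, and ZNF460 (-0.10) and ZNF106 (-0.25) in NPAT against NLS. There, with RNPS1 as the only speckle bait, ZNF416 also lost its speckle call (0.43, adjusted p = 0.138 in edgeR). Over its alternatives ZNF416 ran from 0.43 to 1.33. ZNF639 lost its speckle call without the second NLS input (adjusted p = 0.0517, edgeR).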
